A study of Mus musculus with 40 samples.

Results

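The genes described here are 36 genes of the mitotic cell cycle, a list of proliferation genes fixed by name and found by gene symbol among the 23079 gene rows of the deposited count table. All 36 were found, and all 36 passed the filter on low counts in every comparison. RNA had been sequenced from 2 reproductive tissues of pregnant C57BL/6 mice at 18.5 days post coitum, the end of gestation. The tissues were the cervix, the outlet of the uterus, and the myometrium, the muscle layer of the uterine wall. The groups were cervix of mice given human chorionic gonadotropin (hCG), cervix of mice given phosphate-buffered saline (PBS), myometrium of hCG mice and myometrium of PBS mice, with 10 libraries in each of the 4 groups. Both agents were injected into the peritoneal cavity. hCG is the placental hormone that acts through the luteinizing hormone receptor. All mice were pregnant and carried no engineered allele that the labels name. Neither the dose nor the time since injection is stated in the labels.

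The cell cycle is driven by cyclins, which switch on cyclin-dependent kinases in turn. Before DNA synthesis the origin factors Cdc6 and Cdt1 load the MCM complex, the helicase that unwinds DNA, and the genes of this early stage are known targets of E2F transcription factors. Genes of late S phase and mitosis are known targets of the MuvB complex with B-Myb and Foxm1, which acts at a promoter element called the CHR (cell cycle genes homology region), often with NF-Y bound at CCAAT boxes. In textbook terms, the basal layer of a stratified squamous epithelium, such as that of the cervix, holds the cells that divide, whereas smooth muscle cells of the late pregnant myometrium mostly enlarge rather than divide.

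Promoters were printed for 4 members. They had the smallest p between the tissues of PBS mice, among the called genes with a marked motif in the promoter. The same 4 genes had levels that did not overlap between those tissues. Each window runs from 250 bases before to 50 bases after the annotated start, on the gene's own strand, from RefSeq on GRCm38.p6. Plk1 lies at chr7:122159185-122159484 on the plus strand, Rrm1 at chr7:102441445-102441744 on the plus strand, Ccnb1 at chr13:100786437-100786736 on the minus strand and Cdc20 at chr4:118437294-118437593 on the minus strand. Capitals mark CCAAT boxes (CCAAT), the CHR (TTTGAA) and E2F motifs (TTGGCGC or TTCGCGC), searched on both strands.
Plk1: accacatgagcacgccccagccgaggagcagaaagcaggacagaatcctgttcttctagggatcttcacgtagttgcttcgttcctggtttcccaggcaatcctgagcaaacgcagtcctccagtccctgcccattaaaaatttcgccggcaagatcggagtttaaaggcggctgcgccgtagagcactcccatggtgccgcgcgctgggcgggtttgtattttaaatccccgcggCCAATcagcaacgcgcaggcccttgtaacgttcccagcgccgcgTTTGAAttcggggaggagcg
Cdc20: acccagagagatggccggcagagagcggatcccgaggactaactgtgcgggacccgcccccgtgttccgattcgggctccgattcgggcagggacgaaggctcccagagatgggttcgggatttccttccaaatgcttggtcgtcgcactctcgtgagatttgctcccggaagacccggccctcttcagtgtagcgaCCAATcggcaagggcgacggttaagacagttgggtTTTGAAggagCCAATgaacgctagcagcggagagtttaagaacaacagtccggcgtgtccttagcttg
Ccnb1: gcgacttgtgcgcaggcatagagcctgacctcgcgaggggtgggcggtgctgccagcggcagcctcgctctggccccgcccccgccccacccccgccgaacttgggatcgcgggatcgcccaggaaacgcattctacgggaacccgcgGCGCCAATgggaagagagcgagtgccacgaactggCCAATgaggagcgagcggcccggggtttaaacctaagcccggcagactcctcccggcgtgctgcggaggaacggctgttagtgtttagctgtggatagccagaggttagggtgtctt
Rrm1: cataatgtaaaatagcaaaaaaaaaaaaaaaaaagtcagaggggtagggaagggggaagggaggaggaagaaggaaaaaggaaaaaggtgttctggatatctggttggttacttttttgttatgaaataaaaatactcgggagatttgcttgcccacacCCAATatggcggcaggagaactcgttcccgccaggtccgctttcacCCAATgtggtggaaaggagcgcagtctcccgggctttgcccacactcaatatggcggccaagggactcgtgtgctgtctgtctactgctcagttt
The Plk1 window holds a CCAAT box at -14 to -10 from the start and a CHR at 30 to 35, and the Cdc20 window holds a CHR at -18 to -13 between 2 CCAAT boxes. In the Ccnb1 window the capitals GCGCCAAT join an E2F motif on the minus strand, at -102 to -96, with a CCAAT box that overlaps it at -99 to -95. A second CCAAT box of Ccnb1 stands at -67 to -63. The Rrm1 window has CCAAT boxes at -91 to -87 and at -45 to -41 and neither of the other motifs.

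Across the family, 30 of the 36 genes had a promoter in the table used, with 31 windows because Mcm7 has 2. The CHR letters were in 12 of 16 windows of S/G2 and mitotic genes (75.0%) and in 2 of 15 windows of G1/S, MCM and DNA synthesis genes (13.3%), against 17.9% of all 32851 promoters of this length. CCAAT was in 15 of the 16 (93.8%) and in 11 of the 15 (73.3%), against 37.4% of all promoters. The E2F letters were in 3 of the 16 (18.8%) and in 5 of the 15 (33.3%), against 3.89% of all promoters. A CHR with a CCAAT box in the same window occurred in 14 of the 31 windows (45.2%), against 6.95% of all promoters. These are matches of letters, not measured binding.

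The libraries held between 5449239 and 25028360 counts each. The cervix marker list for basal squamous epithelium summed to 944 to 24500 CPM, counts scaled to the library size, in cervix and to 17.5 to 109 CPM in myometrium. Krt5, the basal keratin, was at or below 1.76 CPM in every myometrium library. Smooth muscle markers were present in both tissues, at 1140 to 26300 CPM in cervix and 12300 to 29400 CPM in myometrium. Within hCG cervix, libraries 3, 5 and R3 stood apart: they carried Upk3a, a gene of bladder epithelium, at 119, 399 and 24.9 CPM, against at most 5.55 CPM in PBS cervix. In 8 myometrium libraries the yolk sac list summed to over 1000 CPM. The main counts are given with and without the bladder-marker and yolk sac libraries. The gene Lars2 held up to 17.5% of counts in PBS cervix (library 5, group median 0.087%), against at most 0.121% in hCG cervix. In myometrium it held at most 5.22% with hCG and 5.63% with PBS. Its part in the results was not tested by itself.

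In PBS mice the cervix carried more mRNA of most of the cell cycle genes than the myometrium did. Of the 36 genes, 24 were higher in cervix and 0 were lower (edgeR quasi-likelihood test, Benjamini-Hochberg adjusted p under 0.05). Among all 14545 genes tested, 54.0% were called, 28.0% higher and 26.1% lower. The median log2 fold change of the 36 was 0.53, against 0.04 for all genes, and 31 of the 36 values were positive. By stage, 17 of the 20 genes of S/G2 and mitosis were higher (median log2 0.81), as were 7 of the 16 genes of G1/S, MCM and DNA synthesis (median 0.19). These are bulk tissues, so that fewer cells of a type and less RNA per cell cannot be told apart. Levels of the basal squamous list moved with the same contrast, and its part in the difference was not tested.

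**Figure D1:**
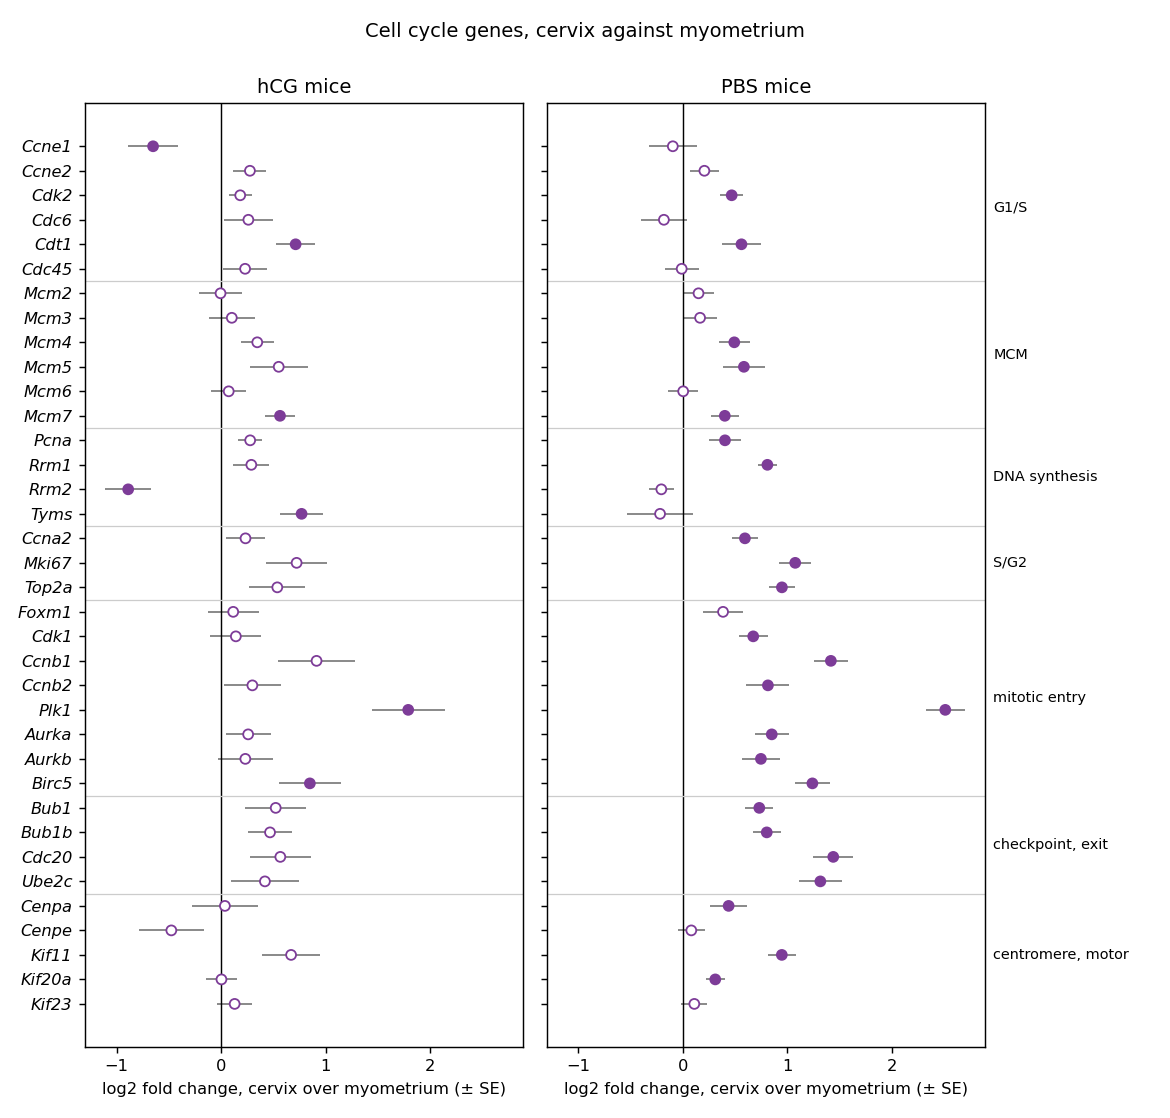
Log2 fold change of cervix over myometrium for the 36 genes, grouped by role, in hCG mice (left) and in PBS mice (right), with standard errors as bars. Filled points passed an adjusted p under 0.05 in edgeR; 24 points are filled in PBS mice, all to the right of 0, and 7 in hCG mice.

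Plk1 (Entrez gene 18817), the kinase that drives centrosome maturation and mitotic entry, differed most. It ranged from 14.8 to 29.0 CPM (median 18.7) in PBS cervix and from 2.27 to 5.14 CPM (median 3.83) in PBS myometrium. All 10 cervix libraries lay above all 10 myometrium libraries. The fitted difference was 5.69-fold (log2 2.51, SE 0.186, edgeR adjusted p = 2.37e-10).

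Other regulators of mitotic entry followed. Ccnb1 (gene 268697), the B-type cyclin of Cdk1, ranged from 20.7 to 52.9 CPM (median 38.2) in PBS cervix and from 9.35 to 19.7 CPM (median 14.1) in PBS myometrium, without overlap, a log2 difference of 1.42 (SE 0.165, edgeR adjusted p = 2.41e-07). Birc5, the survivin subunit of the chromosomal passenger complex, averaged 16.3 ± 4.79 CPM in PBS cervix and 6.84 ± 1.74 CPM in PBS myometrium (SD, n = 10 each; log2 1.24). The kinases Aurka (log2 0.85), which builds the spindle poles, and Aurkb (0.75), the passenger complex kinase, were also higher, as were Ccnb2 (0.81), the second B-type cyclin, and Cdk1 (0.67), the kinase of mitosis. Foxm1, the transcription factor of the late cell cycle, did not pass: it averaged 8.24 ± 2.99 CPM in PBS cervix and 6.25 ± 1.44 CPM in PBS myometrium (log2 0.38, edgeR adjusted p = 0.102).

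All 4 genes of the spindle checkpoint and mitotic exit were higher in PBS cervix. Cdc20 (gene 107995), the activator of the anaphase-promoting complex, ranged from 15.4 to 38.3 CPM (median 22.1) in PBS cervix and from 4.37 to 13.7 CPM (median 7.83) in PBS myometrium. Its 2 sets of libraries did not overlap (log2 1.44, SE 0.19, edgeR adjusted p = 1.48e-06). Ube2c, the ubiquitin-conjugating enzyme of the same complex, was higher by 1.31 on the log2 scale, and the checkpoint kinases Bub1 and Bub1b by 0.73 and 0.80. Every PBS cervix library was above the PBS myometrium median in Cdc20, Ube2c and Bub1b, and 9 of 10 in Bub1.

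The 3 genes of S and G2 phase were higher as well. Mki67 (gene 17345), the coat protein of mitotic chromosomes that is used as a proliferation marker, ranged from 129 to 424 CPM (median 261) in PBS cervix and from 92.6 to 161 CPM (median 124) in PBS myometrium. Only the lowest cervix library, R3, fell within the range of myometrium (log2 1.07, SE 0.155, edgeR adjusted p = 4.7e-06). Top2a, the topoisomerase that untangles replicated chromosomes, was higher by 0.95 on the log2 scale and the S-phase cyclin Ccna2 by 0.59. Of the centromere and motor genes, the spindle motor Kif11 (0.95), the centromeric histone Cenpa (0.44) and the midzone kinesin Kif20a (0.31) passed. The kinetochore motor Cenpe averaged 50.0 ± 9.77 CPM in PBS cervix and 46.9 ± 8.44 CPM in PBS myometrium, and did not pass. Nor did the cytokinesis kinesin Kif23, at 23.5 ± 4.78 CPM in PBS cervix and 21.6 ± 2.86 CPM in PBS myometrium.

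DNA synthesis genes were split. Rrm1 (gene 20133), the large subunit of ribonucleotide reductase, the enzyme that makes deoxynucleotides, ranged from 103 to 147 CPM (median 114) in PBS cervix and from 50.7 to 83.6 CPM (median 65.8) in PBS myometrium. All cervix libraries lay above all myometrium libraries (log2 0.81, SE 0.0922, edgeR adjusted p = 1.81e-07). Its partner Rrm2, the small subunit whose level follows S phase, went the other way without passing: it averaged 32.7 ± 4.68 CPM in PBS cervix and 37.3 ± 7.47 CPM in PBS myometrium, with all 10 cervix libraries below the myometrium median (log2 -0.21, edgeR adjusted p = 0.148). Pcna, the sliding clamp of the replication fork, was higher by 0.40 on the log2 scale. The thymidylate synthase Tyms averaged 143 ± 87.5 CPM in PBS cervix and 168 ± 85.6 CPM in PBS myometrium, a spread wider than the difference.

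Among the helicase genes Mcm5 (log2 0.58), Mcm4 (0.49) and Mcm7 (0.40) were higher in PBS cervix. Mcm2, Mcm3 and Mcm6, subunits of the same ring, had log2 values of 0.15, 0.16 and 0.00 and did not pass. Of the G1/S genes, the licensing factor Cdt1 (0.56) and the S-phase kinase Cdk2 (0.47) were higher. The E cyclins Ccne1 and Ccne2, which activate Cdk2, had log2 values of -0.10 and 0.21, the origin loader Cdc6 of -0.18 and the helicase cofactor Cdc45 of -0.01, and none of these passed.

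The 4 genes without overlap in PBS mice (Plk1, Ccnb1, Cdc20 and Rrm1) can be read against 7.21% of all genes tested, for which every cervix library was above every myometrium library. The count of 24 was 22 to 24 when single libraries were left out and 23 without the 3 PBS myometrium libraries with yolk sac RNA. Among the 24, Cenpa lost its call in 15 of 30 alternatives and Pcna in 8 of 30.

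**Figure D2:**
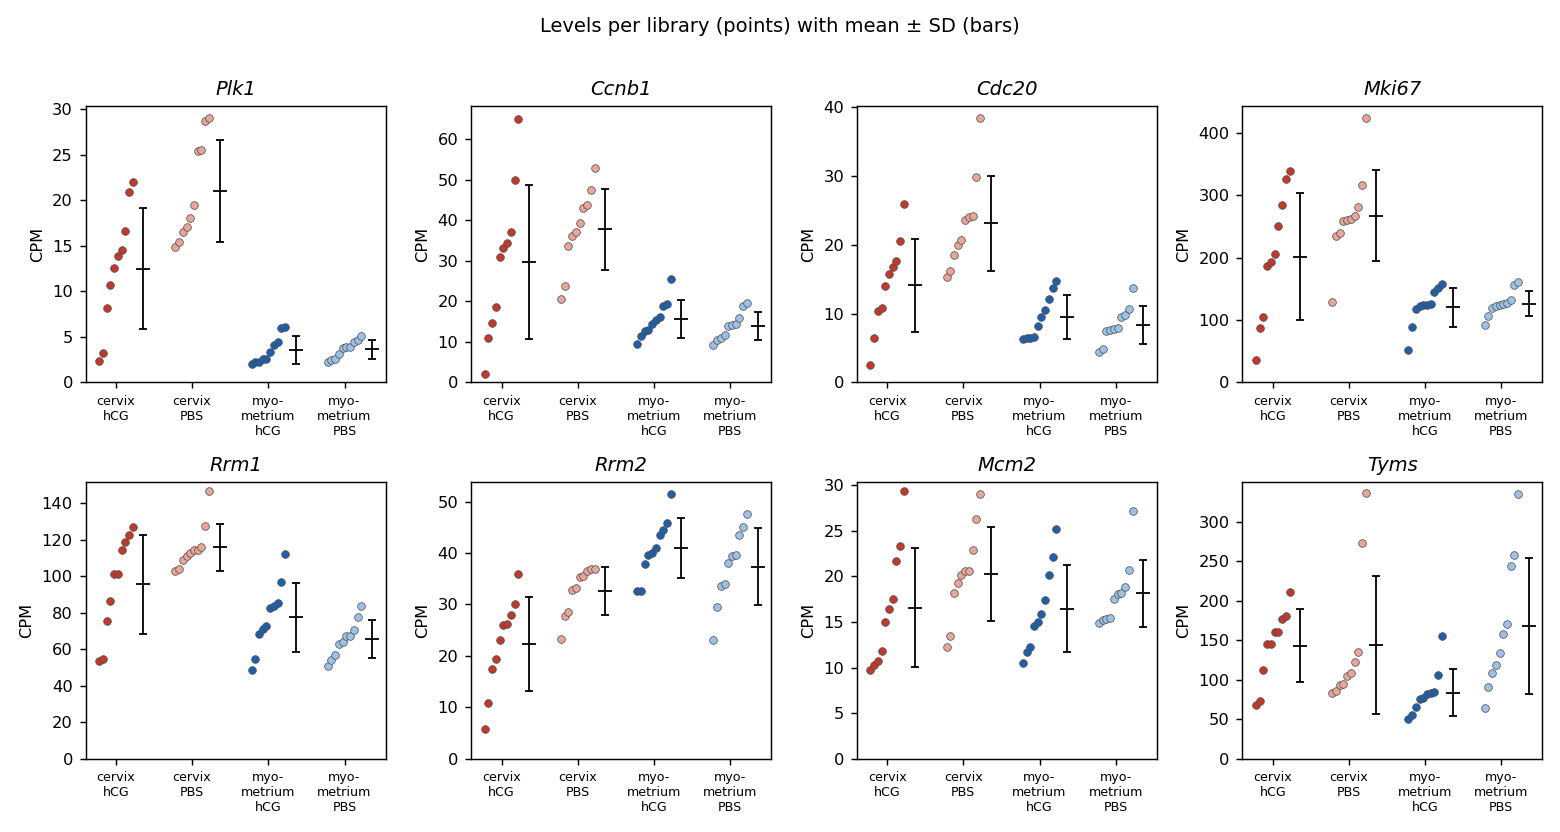
CPM of 8 of the genes in each library (points, sorted by level within a group), with mean and SD beside them. From left to right the groups are hCG cervix, PBS cervix, hCG myometrium and PBS myometrium; Plk1, Ccnb1, Cdc20 and Rrm1 in PBS cervix lie wholly above PBS myometrium, while the lowest hCG cervix libraries lie within or below the PBS myometrium range.

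Genes of the same pathway outside the 36 were also counted, to be read against 28.0% of all genes higher and 26.1% lower in PBS cervix. Of 52 further mitotic genes, 44 were higher in PBS cervix and 1, the cytokinesis scaffold Anln (log2 -0.59), was lower, with a median log2 fold change of 0.72. By smallest p, the leading genes were Hjurp (1.35), the chaperone of Cenpa, Cdc25b (1.93), the phosphatase that activates Cdk1, Racgap1 (0.97) of the midzone, and Ckap2 (0.80), a spindle protein. Of 25 further replication genes, 12 were higher and 0 lower, with a median of 0.34, led by Dut (0.92) and Tk1 (0.95) of nucleotide supply, Rfc5 (0.71) of the clamp loader and Dbf4 (0.59), the partner of the kinase Cdc7.

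Regulators upstream were called in both directions. Of 18 genes of the E2F and MuvB complexes, 5 were higher in PBS cervix (Rbl1, Rb1, Tfdp1, Lin54 and E2f4) and 4 lower (Rbl2, E2f1, E2f2 and Lin52). These counts are near the shares of all 14545 genes tested, 28.0% higher and 26.1% lower. Rbl1, the pocket protein p107, was higher by 0.98 on the log2 scale, while E2f1, an activating E2F, had a log2 value of -0.58. Of the G1 cyclins and their partners, Ccnd2 was higher by 2.10 and Myc by 1.51, and Ccnd1, Ccnd3, Cdk4 and Cdk6 did not pass (log2 0.02, 0.16, 0.09 and 0.41). Among inhibitors of cyclin-dependent kinases, Cdkn2b (2.47) and Cdkn1a (1.87) were higher and Cdkn1c (-3.63) was lower. Cdkn1b, Cdkn2c and Cdkn2d had values of -0.10, 0.01 and 0.13 and did not pass, and Cdkn2a was below the filter.

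In hCG mice fewer of the cell cycle genes differed between the tissues. Of the 36, 5 were higher in cervix and 2 lower, against 43.7% of the 14974 genes tested called, 24.3% higher and 19.4% lower (edgeR, adjusted p under 0.05). The median log2 fold change was 0.28, against 0.07 for all genes, and 13 of the 36 had an unadjusted p under 0.05. The higher genes were Plk1, Birc5, Tyms, Cdt1 and Mcm7, and the lower ones Rrm2 and Ccne1.

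Plk1 ranged from 2.33 to 22 CPM (median 13.2) in hCG cervix and from 2.06 to 6.07 CPM (median 2.95) in hCG myometrium. Here 9 of 10 cervix libraries were above the myometrium median, and libraries 5 and 3, at 2.33 and 3.27 CPM, lay inside the myometrium range. The log2 difference was 1.79 (SE 0.35, edgeR adjusted p = 0.00033). Birc5 averaged 11.2 ± 5.97 CPM in hCG cervix and 6.18 ± 1.44 CPM in hCG myometrium (log2 0.85, adjusted p = 0.0235).

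The S-phase genes moved in both directions. Rrm2 ranged from 5.80 to 36 CPM (median 24.5) in hCG cervix and from 32.5 to 51.5 CPM (median 40.5) in hCG myometrium. All 10 cervix libraries were below the myometrium median, though the ranges overlapped (log2 -0.89, SE 0.22, edgeR adjusted p = 0.00261). Ccne1 averaged 2.76 ± 1.03 CPM in hCG cervix and 4.29 ± 1.38 CPM in hCG myometrium (log2 -0.65, adjusted p = 0.0316). Tyms (log2 0.77), Cdt1 (0.71) and Mcm7 (0.56) were higher, with every hCG cervix library above the myometrium median in Cdt1 and Mcm7.

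This count changed with the libraries left out, among them the 3 with bladder markers. Without hCG cervix libraries 3, 5 and R3, 22 of the 36 genes were higher and 1, Rrm2, was lower, against 25.6% of all genes called higher in the same fit. Plk1 then differed by 2.06 on the log2 scale, Ccnb1 by 1.23, Birc5 by 1.14 and Mki67 by 1.05, and the median of the 36 was 0.47. Leaving out single libraries gave 17 calls without library 5, 12 without R3 and 11 without library 3. In the other direction, 3 genes were called (1 higher, 2 lower) once the hCG myometrium libraries with yolk sac RNA were left out, which leaves 5 myometrium libraries. The share of all genes called in this fit and in the single-library fits is not given here, so these counts are not set against it. That the count is 24 in PBS mice and 7 in hCG mice is not by itself a difference between the treatments, which only the interaction test addresses.

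Outside the 36, in hCG mice, 12 of 52 further mitotic genes were higher, 23.1% against 24.3% of all genes, and 2 were lower (Anln, log2 -1.05, and Ube2s, -0.51). Of 25 replication genes, 10 were higher and 0 lower. With single libraries left out, 7 of the 14 mitotic calls were lost at least once, with Cenpw called in 4 of 20 fits, Mad2l1 in 6, Ube2s in 7, Sgo1 in 8 and Ncapd2 in 10. Without hCG cervix libraries 3, 5 and R3, 35 of the 52 mitotic genes and 15 of the 25 replication genes were higher. Without the yolk sac libraries of hCG myometrium, 4 of the mitotic and 5 of the replication genes were higher. The share of all genes called higher in that last fit is not given here. Hjurp (1.28), Cdc25b (1.47), Kif15 (1.15), a spindle motor, and Cenpk (0.82), a kinetochore subunit, led the mitotic list, and Rfc3 (0.91), Rfc5 (0.78), Dut (0.80) and Rfc4 (0.66) the replication list. Of the 18 E2F and MuvB genes, 3 were higher (Rbl1, Tfdp2 and Rb1, the last in 9 of 20 fits with 1 library left out) and 3 lower (Rbl2, E2f5 and E2f2). Among all genes tested, 24.3% were higher and 19.4% lower. Ccnd2 (2.02), Myc (1.27) and Cdkn2b (1.77) were higher and Cdkn1c (-3.51) was lower.

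Between hCG and PBS mice no cell cycle gene of the 36 was called in cervix by edgeR, where 8.91% of the 14932 genes tested were called. That share was not stable: without some single libraries almost no gene was called, with the values given below. At an unadjusted p under 0.05 there were 5 of the 36, and DESeq2 called 1, Cdk2. The values leaned to 1 side: 32 of 36 were below 0, with a median log2 fold change of -0.26 against 0.01 for all genes. All 20 genes of S/G2 and mitosis were below 0 (median -0.37), as were 12 of the 16 genes of the earlier stages (median -0.12). By role the median was -0.48 for mitotic entry, -0.43 for checkpoint and exit, -0.26 for S/G2, -0.25 for centromere and motors, -0.16 for MCM, -0.15 for DNA synthesis and -0.05 for G1/S.

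**Figure D3:**
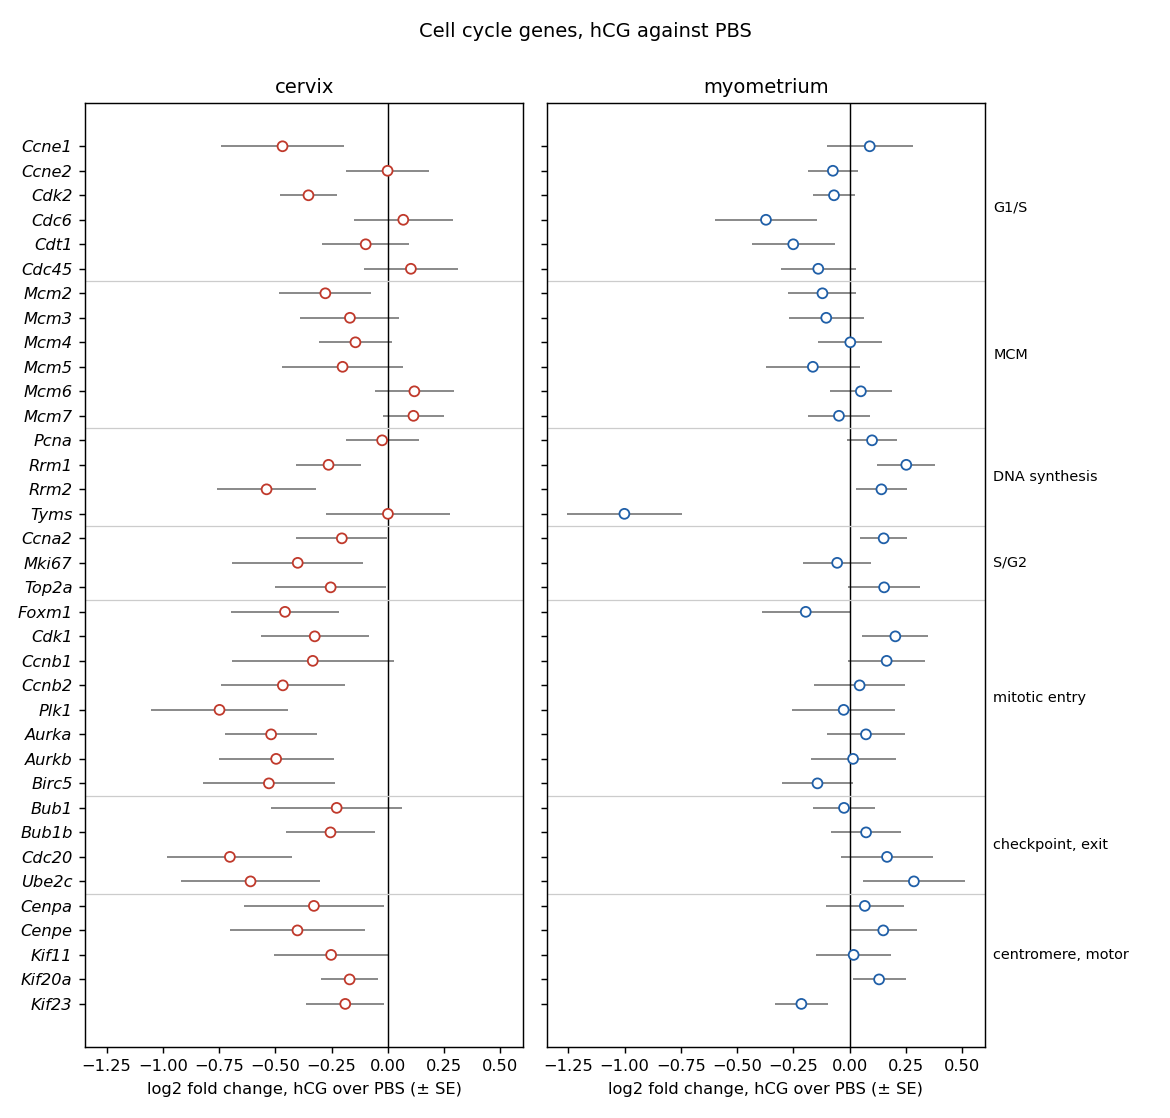
Log2 fold change of hCG over PBS for the 36 genes, grouped by role, in cervix (left) and in myometrium (right), with standard errors as bars on a common scale. All points are open because no gene passed an adjusted p under 0.05; 32 of 36 lie left of 0 in cervix and 16 of 36 in myometrium.

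The lowest p belonged to Cdk2, which averaged 26.3 ± 5.02 CPM in hCG cervix and 33.9 ± 6.00 CPM in PBS cervix (SD, n = 10 each). Its range was 15.3 to 33.8 CPM (median 27.4) in hCG cervix and 25.1 to 44.4 CPM (median 35.0) in PBS cervix. All 10 hCG libraries were below the PBS median, and the ranges overlapped (log2 -0.35, SE 0.127, edgeR adjusted p = 0.0756). The other values with an unadjusted p under 0.05 were those of Cdc20 (log2 -0.70, adjusted p = 0.0994), Aurka (-0.52, adjusted p = 0.1), Plk1 (-0.75, adjusted p = 0.11) and Rrm2 (-0.54, adjusted p = 0.11).

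Plk1 averaged 12.5 ± 6.64 CPM in hCG cervix and 21.0 ± 5.58 CPM in PBS cervix, and Cdc20 14.1 ± 6.80 CPM in hCG cervix and 23.1 ± 6.86 CPM in PBS cervix. The lowest hCG cervix library lay inside the PBS myometrium range for Plk1 (2.33 CPM) and under it for Cdc20 (2.57 CPM), and the highest lay inside the PBS cervix range for both. Mki67 averaged 202 ± 102 CPM in hCG cervix and 267 ± 73.2 CPM in PBS cervix (log2 -0.40, edgeR adjusted p = 0.375). Cdc6, Cdc45, Mcm6 and Mcm7 were the genes with values above 0, between 0.07 and 0.12.

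Library by library, the hCG cervix values divided. The 36 genes summed to 539 CPM in library 5, 821 in R3 and 894 in library 3, against 1300 to 1930 CPM in the other hCG cervix libraries and 1110 to 1830 CPM in PBS cervix. Library 5 was below the lowest PBS cervix library in 33 of the 36 genes, R3 in 28, library 3 in 22 and library 7 in 12. Among the rest the number was between 0 and 5.

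Those libraries also differed in tissue markers. Their urothelium list summed to 2140 CPM (library 5), 168 (R3) and 575 (library 3), against 5.63 to 60.2 CPM in PBS cervix. Their basal squamous list summed to 944, 3460 and 1140 CPM, against 5580 to 24500 CPM in PBS cervix, and smooth muscle markers reached 26300 CPM in library 5. A low basal squamous level was not limited to them: 5 of the 7 other hCG cervix libraries were also below the lowest PBS cervix library. Library 6, at 3460 CPM like R3, had the highest cell cycle sum, 1930 CPM. Their part in the lower cell cycle values was not tested beyond the fits without them.

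**Figure D4:**
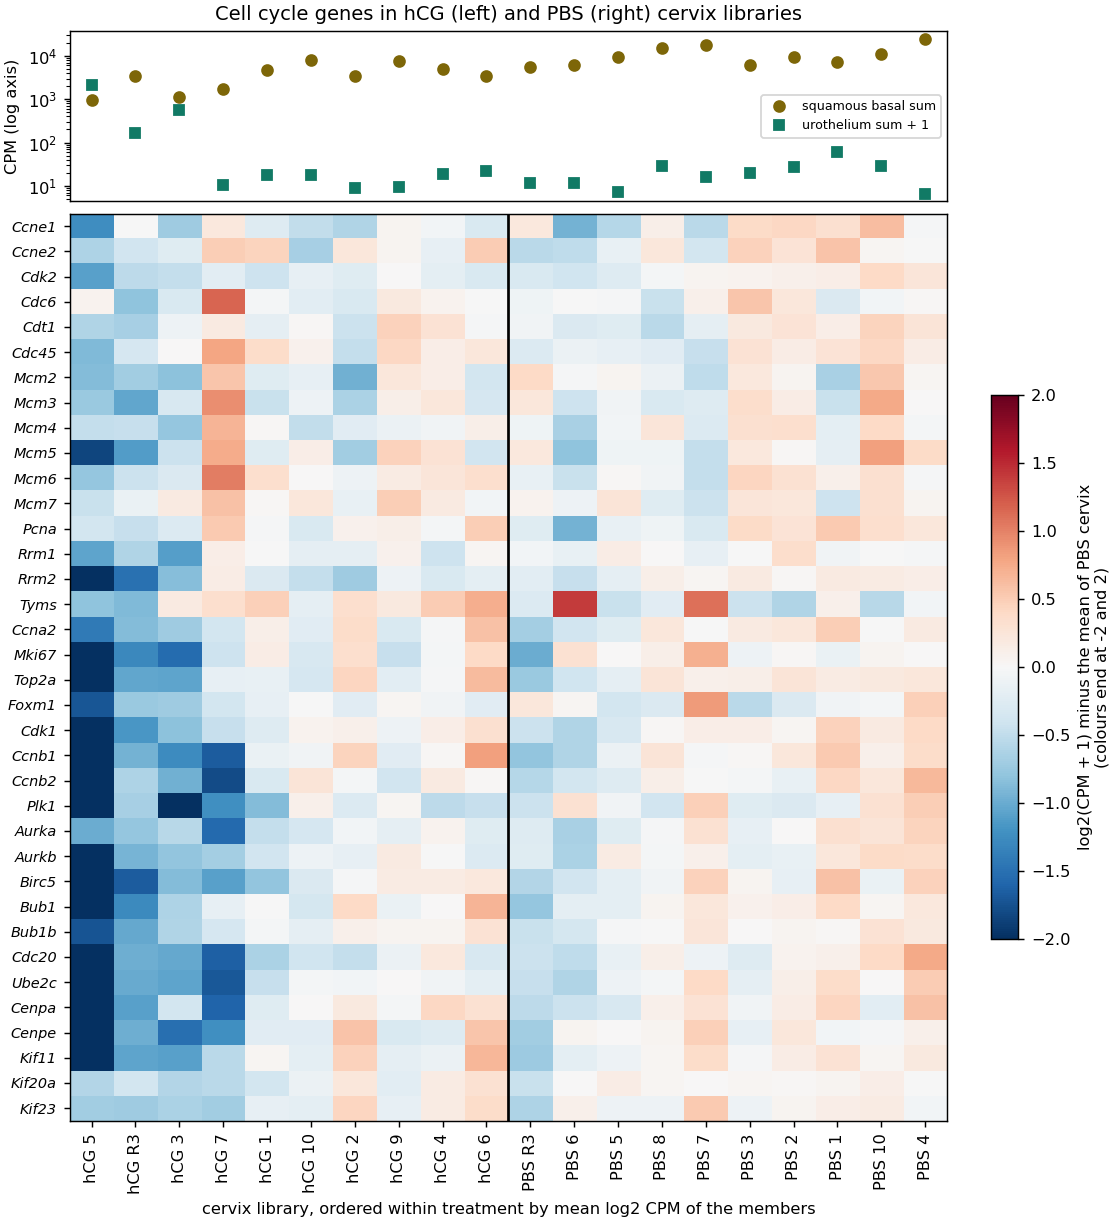
Each cell of the map is 1 gene in 1 cervix library, as log2(CPM + 1) minus the mean of PBS cervix, with hCG libraries left and PBS libraries right of the black line, ordered within each by mean level; the upper strip gives the summed CPM of basal squamous and urothelium markers on a log axis. Libraries hCG 5, R3 and 3 are low across most rows, and hCG 7 is high in the Mcm rows and low in the mitotic rows.

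Without libraries 3, 5 and R3, 0 of the 36 genes were called, 1 had an unadjusted p under 0.05, and 21 values were below 0 with a median of -0.03. The share of all genes called in this fit is not given here, so the count of 0 is not set against it. Plk1 then had a log2 value of -0.46, Cdc20 of -0.45 and Mki67 of -0.07. With the basal squamous level as a covariate, 9 values were below 0 and the median was 0.16. In the summed basal squamous level, 8 of the 10 hCG cervix libraries were below the lowest PBS cervix library. This fit therefore cannot separate that level from the treatment. The lean to lower values was present among deeper libraries (median -0.38) and among shallower ones (-0.32).

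The spread of the cell cycle genes was wider in hCG cervix. Their median coefficient of variation was 40.2% in hCG cervix and 24.1% in PBS cervix, and 32 of the 36 varied more in hCG cervix, against 54% of all genes tested. Without the 3 libraries the median was 27.9% and 25 of the 36 varied more. The share of all genes that varied more is not given for this smaller set. In myometrium the medians were 26.4% with hCG and 24% with PBS.

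Library 7 of hCG cervix showed a different profile. Its 6 Mcm genes summed to 351 CPM, the highest of all 40 libraries, while its mitotic entry genes summed to 64.4 CPM, against 102 to 199 CPM in PBS cervix. Cdc6 was 14.2 CPM in this library, against 3.99 to 8.99 CPM in PBS cervix, and Ccnb1 was 10.9 CPM, against 20.7 to 52.9 CPM in PBS cervix. Library 8 of PBS myometrium was of the same kind in its helicase genes, with an Mcm sum of 292 CPM against 133 to 179 in the other PBS myometrium libraries, and a mitotic entry sum of 66.4 CPM inside the range of its group. It was the shallowest PBS myometrium library, with 5933199 counts, and 1 of those with yolk sac RNA, at a list sum of 11600 CPM; the part of either was not tested.

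**Figure D5:**
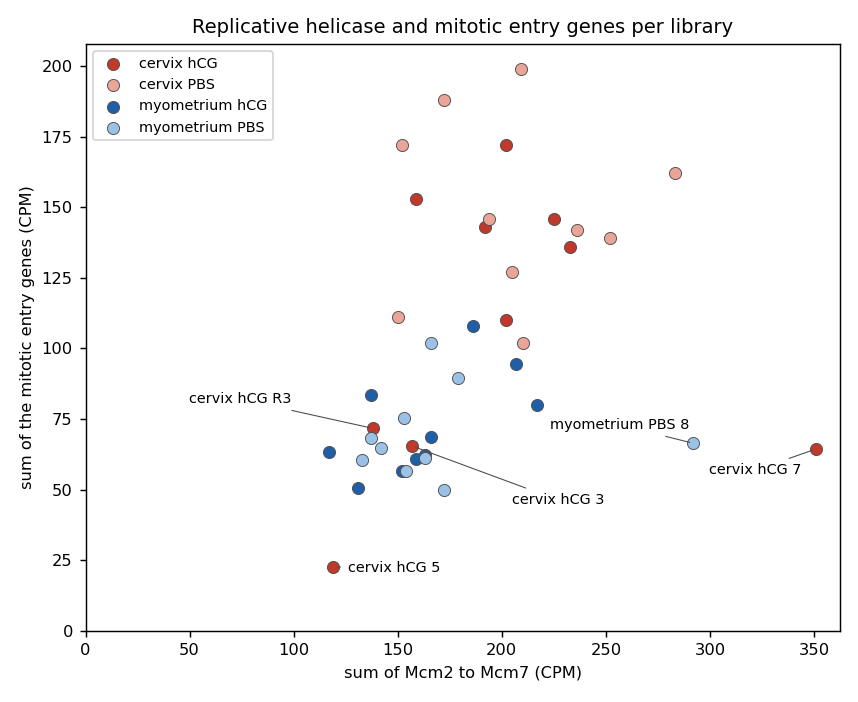
Each point is 1 library: the x axis gives the summed CPM of Mcm2 to Mcm7 and the y axis that of the 8 mitotic entry genes. PBS cervix lies at 102 to 199 CPM on the y axis and PBS myometrium at 49.8 to 102 CPM, with overlapping helicase sums. Libraries hCG cervix 5, 3 and R3 have the lowest helicase sums of their group. They and hCG cervix 7 lie below PBS cervix on the y axis, and hCG cervix 7 and PBS myometrium 8 lie far right.

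In the pathway around the 36, hCG cervix differed from PBS cervix in few genes. Of 52 mitotic genes 1 was lower, Mad2l1 (log2 -0.96, edgeR adjusted p = 0.0359), the checkpoint protein that inhibits Cdc20, and of 25 replication genes none was called. Of 18 E2F and MuvB genes 2 were lower, E2f4 (-0.52, adjusted p = 0.0428) and E2f7 (-1.12, adjusted p = 0.0467), both known as repressors. Cdkn1a, the inhibitor p21, averaged 24.2 ± 10.9 CPM in hCG cervix and 86.1 ± 60.1 CPM in PBS cervix, a log2 difference of -1.82 (SE 0.363, edgeR adjusted p = 0.0263). Cdkn1b, the inhibitor p27, averaged 81.2 ± 11.5 CPM in hCG cervix and 66.1 ± 8.84 CPM in PBS cervix (log2 0.31, adjusted p = 0.0425). These calls were sensitive to single libraries, with no change of sign. With 1 library left out, Cdkn1a was called in 16 of 20 fits, Mad2l1 in 11, Cdkn1b in 8, and E2f4 and E2f7 in 7 each. The log2 value of Cdkn1a then stayed between -1.95 and -1.58. DESeq2 called all 5 genes (adjusted p = 0.000105 for Cdkn1a, 0.00825 for Mad2l1, 0.0145 for E2f7, 0.0166 for E2f4 and 0.0176 for Cdkn1b). By limma voom, only Cdkn1a and Mad2l1 were called. Without PBS cervix library 4 the adjusted p of Cdkn1a was 0.0552, and 0.00678% of all genes were called in place of 8.91%. Without library 7 or library 8 of PBS cervix the share was 0.00656% and 0.0131%, and without hCG library 3 it was 0.0544%. Without hCG libraries 3, 5 and R3, Cdkn1a had a log2 value of -1.72 (edgeR adjusted p = 0.127), and none of the 5 genes was called. With the basal squamous level as a covariate none was called either, though that fit cannot separate the level from the treatment. The log2 values were then -1.20 for Cdkn1a, -0.47 for Mad2l1, -0.32 for E2f4, -0.20 for E2f7 and 0.29 for Cdkn1b. Without PBS cervix libraries 5 to 8, a set that includes the library highest in Lars2, none was called, and E2f7 was at -0.67. The share of all genes called in these last fits is not given here.

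In myometrium no cell cycle gene differed between hCG and PBS mice past the threshold. By edgeR 0 of the 36 were called, against 0.0138% of the 14517 genes tested, and 1 had an unadjusted p under 0.05. The median log2 fold change was 0.02, and 20 of 36 values were above 0. That 1 gene was Tyms, which makes thymidylate for DNA synthesis. It ranged from 50.4 to 155 CPM (median 79.8) in hCG myometrium and from 63.6 to 335 CPM (median 145) in PBS myometrium. In hCG mice 9 of 10 libraries were below the PBS median, though the ranges overlapped (log2 -1.0, SE 0.256, edgeR adjusted p = 0.0975). DESeq2 called Tyms (adjusted p = 0.0107), as did edgeR without PBS library 2. Without the 8 myometrium libraries with yolk sac RNA edgeR called 0 of the 36, and Tyms had a log2 value of -0.95 (adjusted p = 0.673). The largest differences among the rest were Cdc6 (log2 -0.37) and Ube2c (0.29).

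Plk1 averaged 3.56 ± 1.54 CPM in hCG myometrium and 3.63 ± 0.999 CPM in PBS myometrium, and Mki67 121 ± 31.3 CPM in hCG myometrium and 127 ± 20.6 CPM in PBS myometrium. Ccnb1 averaged 15.6 ± 4.65 CPM in hCG myometrium and 14 ± 3.49 CPM in PBS myometrium. None of the genes in the replication, mitotic, E2F and MuvB, G1 cyclin or inhibitor lists was called there.

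The response to hCG was then compared between the tissues in 1 model of all 40 libraries. The difference of the responses, cervix minus myometrium, was called in 0 of the 36 genes by edgeR, against 0.352% of the 15624 genes tested, with 6 at an unadjusted p under 0.05. DESeq2 also called 0, and limma voom called 2, Rrm2 and Tyms. The median was -0.33, against 0.03 for all genes. The 6 were Rrm2 (-0.69), Rrm1 (-0.53), Tyms (0.98), Cdc20 (-0.88), Ube2c (-0.90) and Aurka (-0.60), with edgeR adjusted p between 0.126 and 0.201. Of the pathway lists, Cdkn1a was called, at -1.82 (SE 0.395, adjusted p = 0.0392); the call was lost with the replicate block (-1.47, adjusted p = 0.0771), without hCG cervix libraries 1, 3 and 5 (-1.82, adjusted p = 0.0763) and without the yolk sac libraries of myometrium (-1.85, adjusted p = 0.313). Its myometrium means were 23.3 ± 6.67 CPM with hCG and 23.5 ± 4 CPM with PBS.

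Other cell types that can divide were present to different degrees, and their part in the results was not tested. Fibroblast markers summed to 4950 to 14900 CPM in cervix and 9150 to 23200 CPM in myometrium, macrophage markers to 107 to 651 CPM in cervix and 539 to 1000 CPM in myometrium, and endothelial markers to 162 to 377 CPM in cervix and 371 to 785 CPM in myometrium. Simple epithelium markers summed to 612 to 1960 CPM in cervix and 498 to 2310 CPM in myometrium. The T and B cell list summed to at most 5.27 CPM and the myeloid precursor list to at most 9.88 CPM in any library, and the erythroid precursor list to at most 58.8 CPM. Neutrophil markers summed to 5.35 to 235 CPM in hCG cervix and 6.56 to 23.2 CPM in PBS cervix, and their part in the cervix values was not tested. Trophoblast and decidua markers had a median of 94.6 CPM (highest 1320) in hCG myometrium and 3.82 CPM (highest 184) in PBS myometrium. Adipocyte markers reached 2090 CPM in hCG cervix (library 3) and 184 CPM in PBS cervix. Skeletal muscle markers reached 4250 CPM in hCG cervix (library 1) and 188 CPM in PBS cervix. The part of these tissues was not tested. Counting can mix genes that share a locus: 9 of the 36 overlap a protein-coding gene in the annotation, among them Cdk2 with Pmel, Cdc20 with Elovl1, Aurka with Cstf1 and Mcm7 with Ap4m1. The libraries were stranded, but whether strand was used in counting is not stated in the sources. Pcna, Tyms, Ccnb1 and Ccnb2 have processed copies in the annotation and are uncertain to that degree.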

How the data were processed

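RNA from cervix and myometrium was sequenced after a stranded total RNA library kit, per the labels' protocols. The authors deposited whole-number read counts per Entrez gene in 40 libraries. Reads were aligned with TopHat2 to GRCm38 (mm10), per the submitters' processing notes; the counter, its annotation and its strand setting are not stated there or in the labels. Of 23079 gene IDs, 23008 matched a symbol in RefSeq GRCm38.p6; the other 71 held 0.197% of counts. Library totals ran from 5449239 to 25028360.

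Comparisons used edgeR 4.0.16 in R 4.3.3 on the counts as deposited: filterByExpr, TMM factors, a robust quasi-likelihood F-test, two-sided, and Benjamini-Hochberg adjustment over all genes tested, with 0.05 as threshold. Only the groups compared entered a fit, except for the interaction. CPM were TMM-scaled over the 40 libraries. The SE of a log2 fold change is its size over the square root of F. Alternatives included DESeq2 1.42.0 and limma 3.58.1 (voom), and the scripts were tested on simulated data. Groups follow the sample titles. The labels do not tie numbers to animals, so p-values measure the spread between these samples, which may be technical.

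All 36 genes could be named; of other lists, up to 4 called genes per direction by smallest p, besides G1 cyclins and inhibitors. The genes and lists were chosen with earlier results of these data known. Promoter sequences are from RefSeq on GRCm38.p6, and 6 of the 36 genes had none in the table used.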

Additional observations from a re-analysis of the deposited data

Results flagged for a closer look

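In the 144 sets of 10 libraries (36 genes in 4 groups), 17 times the highest or lowest library stood apart from its nearest neighbour by a gap larger than Dixon's 95% critical value allows for its group's range. Chance flags about 1 in 20 groups. Of the 17, 9 were library 8 of PBS myometrium, where Ccne1 (7.14 CPM), Cdk2 (33.6), Cdc6 (16.9), Cdt1 (6.1), Mcm2 (27.2), Mcm3 (35.4), Mcm4 (59.6), Mcm6 (95.3) and Mcm7 (44.1) were the highest. That library was the shallowest of its group (5933199 counts) and carried yolk sac RNA (11600 CPM). Another 4 were library 7 of hCG cervix, with Cdc6 (14.2 CPM), Mcm3 (44.9), Mcm4 (76.7) and Mcm6 (105) the highest. All 13 are values of genes of G1/S or the MCM helicase. The rest were Cdc45 in hCG myometrium library 4 (8.75 CPM, high), Tyms (155 CPM, high) and Mcm4 (19.2 CPM, low) in hCG myometrium library 6, and Kif20a in PBS cervix library R3 (27.5 CPM, low). No cause was tested.

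The hCG response of Cdkn1a differed between the tissues by the interaction test, by -1.82 on the log2 scale, cervix minus myometrium (edgeR adjusted p = 0.0392). The call was lost with the replicate block, without hCG cervix libraries 1, 3 and 5, and without the yolk sac libraries of myometrium (adjusted p = 0.313).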

How the results depend on the processing

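No called gene changed sign. In PBS mice the count of cell cycle genes called between the tissues (24) was 23 to 25 under other factors, filters and tools, and 22 to 24 with single libraries left out; of 720 values of called genes under the alternatives, 24 missed the threshold. In hCG mice the count (7) was 11 with upper-quartile factors, 11 with limma voom, 12 with all 40 libraries in 1 fit, 18 without hCG cervix libraries 1, 3 and 5, 23 without 3, 5 and R3, and 3 without the yolk sac libraries; single libraries left out gave 6 to 17. For hCG against PBS in cervix (0) it was 1 with DESeq2 (Cdk2), 1 with limma voom (Rrm2) and 5 with all 40 libraries in 1 fit (Cdk2, Rrm2, Plk1, Aurka and Cdc20), and 0 to 1 with single libraries left out. In myometrium (0) it was 1 with DESeq2 (Tyms) and 0 to 1 with single libraries left out. For the difference of the responses (0) it was 2 with limma voom. The cause of these shifts was not tested, and the share of all genes called in each of these fits is not given here. Upper-quartile factors moved the median of all genes by up to 0.105 on the log2 scale.

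The deviations of libraries with the same number in both tissues correlated with r from -0.254 to 0.572 (18 pairs, median 0.0644, 8 over 0.1). The highest r was that of number 6 in PBS mice. Whether the numbers pair samples was not tested, and the main fits treated the libraries as unpaired. With the replicate block the count was 1 in cervix (Cdk2), 0 in myometrium, 24 in PBS mice (23 higher and 1, Rrm2, lower), 6 in hCG mice and 0 for the difference of the responses; 5 of the 18 libraries correlated best with their own number.

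The fits without libraries 3, 5 and R3 and without yolk sac libraries were chosen after seeing the data. Genes near 1 to 5 CPM, such as Ccne1 and Cdt1, rest on few reads in the shallower libraries, and differences smaller than the intervals given by their SE were not detectable at this depth.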
